A study of Drosophila melanogaster with 6 samples.

Results

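Hemocytes are the blood cells of the fly, and the 10 genes described here are used as markers of their lineages. They were selected by gene symbol: PPO1, PPO2 and lz for crystal cells, srp for hemocytes in general, and Hml, NimC1, crq, eater, drpr and Sr-CI for macrophages. Each symbol was the sole gene of exactly 1 probe set, so 10 probe sets of 18769 tested, and 10 of 11982 named genes, are described. RNA came from whole Drosophila melanogaster embryos of stages 11 to 16, collected and aged at 25 C and sorted on a biosorter. In the first group (3 samples) UAS-Sage was expressed under tub-Gal4, and in the control group (3 samples) the tub-Gal4 strain alone was used, so every embryo carried the driver. Sage belongs to the basic helix-loop-helix family of transcription factors and acts in the embryonic salivary gland, and tub-Gal4 is active in most cells. The groups are therefore a model of Sage made in nearly all tissues, not in blood cells alone. The labels describe the groups as alike in age and handling, and they give neither the number of embryos per sample nor whether samples were collected apart. The p-values therefore rest on a sample-to-sample spread of unknown source, which may not be that of separate embryo collections.

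Embryonic hemocytes arise in the head mesoderm under the GATA factor Serpent, the product of srp. Most become macrophages (plasmatocytes), which spread through the embryo, engulf dying cells and lay down basement membrane. A smaller number near the foregut take up the Runx factor Lozenge, the product of lz, and become crystal cells, which store prophenoloxidases, the proenzymes of melanin formation at wounds. The comparison set out here is whether genes of both lineages moved alike when Sage was present throughout the embryo.

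Values are log2 signals of Affymetrix 3' expression arrays, and 1 unit is a doubling of signal. A gene rose or fell where limma's test, adjusted by Benjamini-Hochberg over all probe sets, gave an adjusted p under 0.05. The transcript of sage checked the labels: its signal was 12.39, 12.53 and 12.50 on the Sage arrays, against 7.38, 7.50 and 7.66 on the control arrays. Array medians lay between 5.56 and 5.74, a level near which such signals compress differences. The control arrays were less alike than the Sage arrays. Over all probe sets (genes are no independent replicates), Pearson's r was 0.987 for control replicates 1 and 2, 0.969 for 2 and 3, and 0.938 for 1 and 3. Between Sage arrays it was 0.989 to 0.996, and control replicate 3 had r of 0.895 to 0.904 with the Sage arrays. Genes of the late cuticle, which come on as the epidermis matures, separated the same arrays: the mean log2 signal of 23 measured genes of 28 listed was 8.88, 8.95 and 9.23 on the Sage arrays, against 8.26, 6.76 and 5.52 on control replicates 1, 2 and 3. Of these, 7 rose and none fell, with log2 differences of 4.04 for Lcp65Af, 4.02 for TwdlN, 3.01 for Ccp84Ae, 2.96 for Lcp65Ac, 1.49 for Edg91 and 1.11 for Cpr49Aa among them (limma). Signal of the hybridisation control BioB averaged 9.12 on the Sage arrays and 7.73 on the control arrays, without overlap. The log2 signal of 3' over 5' probe sets averaged 3.63 with Sage and 3.05 in the controls for Act5C, and 2.37 with Sage and 1.94 in the controls for eIF4A, both without overlap, whereas the GAPDH values of the groups overlapped. Handling and group therefore cannot be told apart for the genes below. Late cuticle genes come on with embryo age, but here they also differed between the groups. Age and an effect of Sage on them therefore cannot be told apart. The late cuticle mean is set beside the results it moves with.

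Of the 10 hemocyte genes, both prophenoloxidase genes of crystal cells rose with Sage and the other 8 did not pass the test. PPO1 was 3.04-fold and PPO2 2.38-fold higher, whereas none of the 6 macrophage genes changed at the threshold, with log2 differences between -0.35 and 0.35. Over all probe sets, 4.25% were called higher and 9.45% lower by this test, so the 2 of 10 called higher and the 0 of 10 called lower stand beside those shares. At an unadjusted p under 0.05, limma gave 3 of the 10 as higher (PPO1, PPO2 and drpr) and 1 as lower (srp). Over all 18769 probe sets, 2244 were higher and 2746 lower at that threshold. The median log2 difference was 1.25 for the 3 crystal cell genes and 0.08 for the 6 macrophage genes, beside 0.0003 over all probe sets. The first median is the value of PPO2 itself, and the second includes the dim genes Hml, NimC1 and eater. In whole embryos, fewer cells of a type and less RNA per cell cannot be told apart, and the same holds for more of either.

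**Figure D1:**
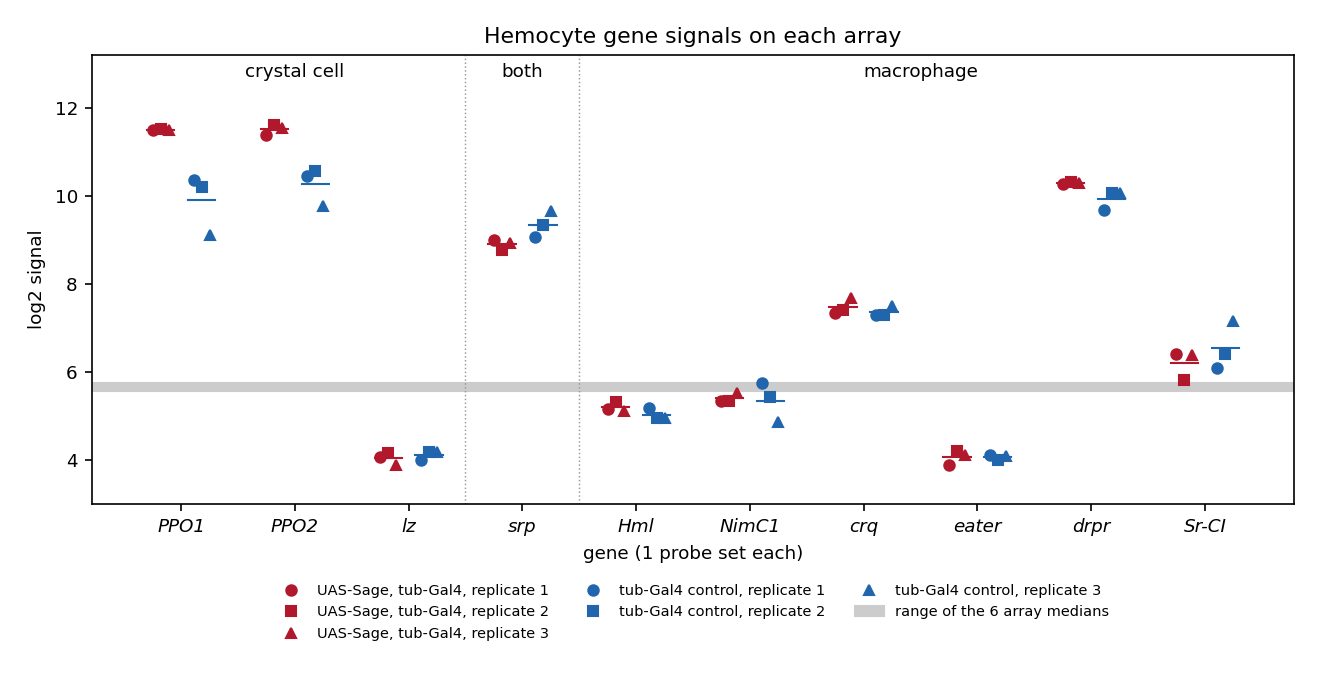
Log2 signal of each hemocyte gene (vertical axis) on the 3 Sage arrays (red) and the 3 control arrays (blue), with group means as short lines and the range of the 6 array medians as a grey band. PPO1 and PPO2 are higher on all Sage arrays than on any control array, while lz, Hml and eater lie below the array medians in both groups.

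The gene PPO1 encodes a prophenoloxidase that crystal cells carry. Its log2 signal was 11.51, 11.52 and 11.49 on the Sage arrays, against 10.37, 10.21 and 9.12 on the control arrays. The Sage values were nearly equal and lay at least 1.13 above every control, and control replicate 3 was the lowest. The log2 difference was 1.61 (SE 0.33, 95% interval 0.80 to 2.41), with an adjusted p of 0.0273 by limma, and the direction held in 3 of 3 Sage arrays.

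The second prophenoloxidase gene of crystal cells, PPO2, had log2 signals of 11.39, 11.61 and 11.54 on the Sage arrays, against 10.45, 10.57 and 9.77 on the control arrays. Here too the groups did not overlap, with a gap of 0.83, and control replicate 3 was again the lowest. The log2 difference was 1.25 (SE 0.22, 95% interval 0.71 to 1.79), with an adjusted p of 0.0162 by limma. By an exact permutation test (two-sided), p was 0.1 for PPO1 and for PPO2, the smallest that 3 arrays against 3 allow.

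The spread of the prophenoloxidase genes lay in the controls. PPO1 had an SD of 0.01 on the Sage arrays and 0.68 on the control arrays (n = 3 each), beside medians over all probe sets of 0.11 with Sage and 0.16 in the controls. For PPO2 the SD was 0.11 with Sage and 0.43 in the controls (n = 3 each). Set against control replicate 1 alone, the Sage mean was higher by 1.14 for PPO1 and 1.07 for PPO2, against control replicate 2 by 1.29 and 0.95, and against control replicate 3 by 2.39 and 1.74.

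Both calls rest on few arrays. Without control replicate 3 the differences were 1.22 for PPO1 (adjusted p = 0.000944 by limma) and 1.01 for PPO2 (adjusted p = 0.00249), whereas without Sage replicate 1, 2 or 3 neither gene stayed under the threshold (adjusted p = 0.0941, 0.101 and 0.108 for PPO1, and 0.0541, 0.0714 and 0.0769 for PPO2, by limma), nor did PPO1 without control replicate 2 (adjusted p = 0.0568), with the size of the differences between 1.20 and 1.76. With the late cuticle mean as a covariate the differences were 0.66 for PPO1 (adjusted p = 0.247 by limma) and 0.74 for PPO2 (adjusted p = 0.175). That mean itself separated the groups without overlap, so covariate and group cannot be fully told apart. A smaller difference or a lost call in that fit, here and below, is therefore no correction for age.

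The crystal cell determinant lz, the Runx factor gene upstream of that fate, did not move with the prophenoloxidases. Its log2 signal was 4.06, 4.15 and 3.88 on the Sage arrays, against 3.98, 4.17 and 4.18 on the control arrays. All 6 values lay below the array medians and the groups overlapped. The log2 difference was -0.08 (SE 0.11, 95% interval -0.35 to 0.18, adjusted p = 0.705 by limma). At so dim a signal, a change in lz RNA may not be visible on these arrays.

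The GATA factor gene srp, needed in both hemocyte lineages and also in the fat body, had log2 signals of 9.00, 8.76 and 8.94 on the Sage arrays, against 9.06, 9.33 and 9.65 on the control arrays. The Sage values lay below all controls, by a gap of only 0.06 from control replicate 1. The log2 difference was -0.45 (SE 0.17, 95% interval -0.86 to -0.04) with no call (adjusted p = 0.152 by limma), but leaving out control replicate 1 gave -0.59 and a call (adjusted p = 0.0466). With the late cuticle mean as a covariate the difference was 0.01.

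**Figure D2:**
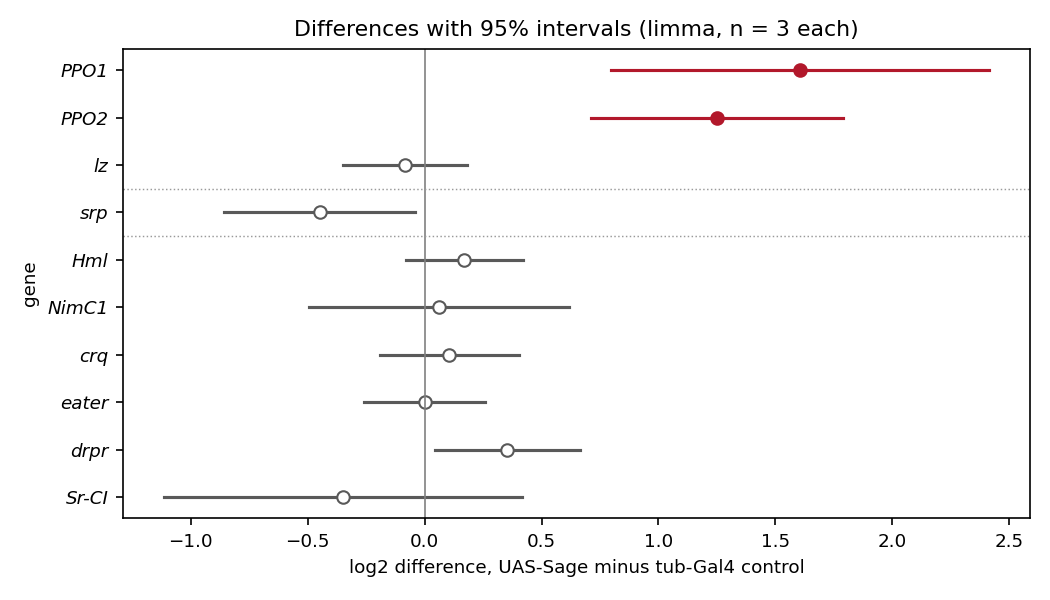
Log2 difference (UAS-Sage minus tub-Gal4 control, horizontal axis) of each hemocyte gene with its 95% interval from limma; filled red points passed an adjusted p of 0.05. The intervals of PPO1 and PPO2 start at 0.80 and 0.71, above the upper ends of all 6 macrophage intervals, of which that of drpr reaches highest (0.66).

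Of the macrophage genes, 2 serve the uptake of dying cells. The engulfment receptor gene drpr had log2 signals of 10.27, 10.31 and 10.29 on the Sage arrays, against 9.67, 10.06 and 10.07 on the control arrays. The groups did not overlap, as in 3 of the 10 genes upward (PPO1, PPO2 and drpr) and 1 downward (srp), beside 16.6% of all probe sets upward and 18.1% downward. The log2 difference of drpr was 0.35 (SE 0.13, 95% interval 0.04 to 0.66), short of the threshold (adjusted p = 0.14 by limma). Unlike the prophenoloxidases, the lowest drpr value among the controls was that of replicate 1, and against that array alone the Sage mean was 0.61 higher. The drpr difference was 0.67 with the late cuticle mean as a covariate (adjusted p = 0.0562).

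The CD36-family scavenger receptor gene crq, which also acts in corpse uptake, had log2 signals of 7.34, 7.41 and 7.67 on the Sage arrays, against 7.30, 7.29 and 7.50 on the control arrays. The groups overlapped, and the log2 difference was 0.11 (SE 0.12, 95% interval -0.19 to 0.40, adjusted p = 0.659 by limma). The probe set of crq is of a kind whose probes can match more than one transcript, although the annotation names crq alone. The same holds for the probe sets of Stat92E, ced-6 and Col4a1, each named alone and given below.

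Sr-CI, a class C scavenger receptor gene, had log2 signals of 6.40, 5.81 and 6.39 on the Sage arrays, against 6.10, 6.39 and 7.16 on the control arrays. The groups overlapped, with Sage replicate 2 the lowest and control replicate 3 the highest. The log2 difference was -0.35 (SE 0.31, 95% interval -1.11 to 0.42, adjusted p = 0.558 by limma), so a change of 2-fold downward was within the interval. Without control replicate 3 the difference was -0.04.

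The remaining macrophage genes, Hml, NimC1 and eater, were dim. Hml, for the clotting protein hemolectin, had log2 signals of 5.16, 5.32 and 5.11 on the Sage arrays, against 5.17, 4.95 and 4.96 on the control arrays. NimC1, a Nimrod receptor gene of phagocytosis, had 5.35, 5.34 and 5.53 on the Sage arrays, against 5.75, 5.42 and 4.87 on the control arrays. eater, which encodes a receptor for bacteria with many EGF-like repeats, had 3.88, 4.20 and 4.10 on the Sage arrays, against 4.11, 3.99 and 4.08 on the control arrays. The groups overlapped for all 3 genes, and only the NimC1 value of control replicate 1 lay above its array's median. The 95% intervals of the log2 difference ran from -0.08 to 0.42 for Hml, from -0.50 to 0.62 for NimC1 and from -0.26 to 0.26 for eater (adjusted p = 0.365, 0.909 and 0.999 by limma). The sign of the NimC1 difference (0.06) turned without control replicate 3 (-0.18) and with median centring (-0.03).

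Of the macrophage markers, then, drpr, crq and Sr-CI were above the array median on every array, while Hml and eater were below it on every array. Any reading for macrophages therefore rests on the first 3 and on srp, which the fat body also needs. RNA of whole embryos does not show that the signal of drpr, crq or Sr-CI came from macrophages alone. The mean log2 signal of the 3 crystal cell genes, lz included, was 8.99, 9.09 and 8.97 on the Sage arrays, against 8.27, 8.32 and 7.69 on control replicates 1, 2 and 3. That of the 6 macrophage genes was 6.40, 6.40 and 6.51 on the Sage arrays, against 6.35, 6.35 and 6.44 on the control arrays. The first mean holds the 2 called genes and 1 dim gene, and the second holds 3 dim genes. In the fit without a covariate, the 95% intervals of PPO1 and PPO2, but not that of lz, lay above those of all 6 macrophage genes. With the late cuticle mean as a covariate, drpr (0.67) had a log2 difference as large as those of PPO1 (0.66) and PPO2 (0.74), and none of the 3 passed (adjusted p = 0.0562, 0.247 and 0.175 by limma). Pxn and Pvr, planned as macrophage markers too but outside the genes selected here, rose, with limits given below. Their log2 differences were 1.43 and 0.46 (adjusted p = 0.00286 and 0.0316 by limma). The contrast between the lineages therefore concerns only the 6 macrophage genes selected here, and it was not tested.

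**Figure D3:**
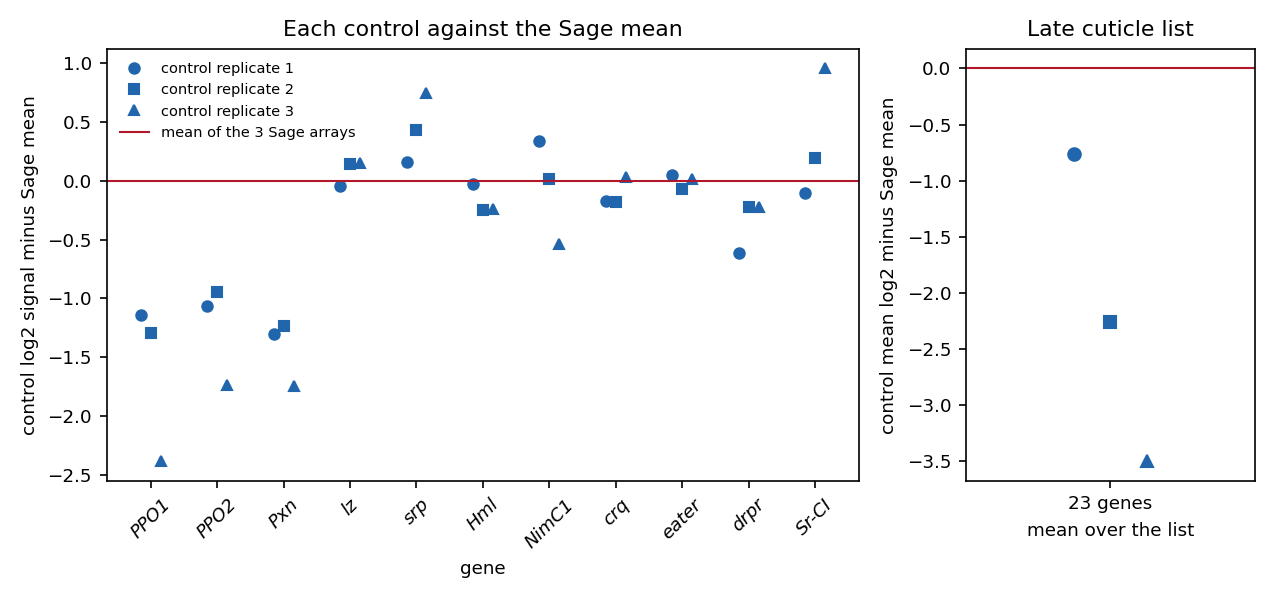
Left, log2 signal of each control array minus the mean of the 3 Sage arrays (red line) for the hemocyte genes and Pxn; right, the same for the mean of the 23 late cuticle genes, on an axis of its own. For PPO1, PPO2 and Pxn all controls lie at least 0.95 below the Sage mean, with control replicate 3 the lowest in each, as it is in the late cuticle mean.

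Other genes of melanin formation did not move as a group with the prophenoloxidases. The counts of this and the other lists stand beside 4.25% called higher and 9.45% called lower over all probe sets. At an unadjusted p under 0.05 by limma, 2244 of 18769 probe sets were higher and 2746 lower. In lists this short, a few calls are no result about the list. Of 10 measured genes of 11 listed, 1 rose, none fell and 9 did not pass (limma; at an unadjusted p under 0.05, 2 were higher and 2 lower), with a median log2 difference of 0.13. The gene that rose, yellow-f2, which encodes an enzyme of melanin synthesis, had 6.22, 6.43 and 6.64 on the Sage arrays, against 5.70, 5.59 and 5.40 on the control arrays (log2 difference 0.86, SE 0.14, adjusted p = 0.0125 by limma). Its call was lost without Sage replicate 2 or 3 (adjusted p = 0.0542 and 0.0503), with control replicate 1 as the only control (adjusted p = 0.065) and with the late cuticle mean as a covariate (adjusted p = 0.148). PPO3, the prophenoloxidase gene of lamellocytes, which are the wound and parasite capsule cells of larvae, lay below the array medians with a log2 difference of 0.15 (adjusted p = 0.54).

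Transcription and signalling factors that act on hemocyte fate included 2 that fell and none that rose among 9 measured of 13 listed (limma; none was higher at an unadjusted p under 0.05 either), with a median log2 difference of -0.11. Stat92E, the transcription factor of the JAK-STAT pathway, had 9.90, 9.30 and 9.86 on the Sage arrays, against 10.88, 10.89 and 11.17 on the control arrays. The groups did not overlap and the log2 difference was -1.29 (SE 0.19, adjusted p = 0.0088 by limma). The zinc finger gene klu fell by 1.32 on the log2 scale (SE 0.32, adjusted p = 0.0453 by limma), while its second, dimmer probe set gave 0.14. Neither passed with the late cuticle mean as a covariate (-1.09, adjusted p = 0.0968 for Stat92E and -0.54, adjusted p = 0.476 for klu). The klu call was lost without any Sage array, control replicate 2 or control replicate 3 (adjusted p up to 0.139) and with control replicate 1 as the only control (log2 difference -0.72, adjusted p = 0.191).

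Genes of the scavenger receptor and Nimrod families other than those above gave no calls in either direction among 14 measured (limma, with 1 higher at an unadjusted p under 0.05). Their median log2 difference was 0.22. The largest differences were those of the Nimrod B genes NimB4 and NimB2. NimB4 had 9.87, 10.06 and 9.98 on the Sage arrays, against 9.63, 9.05 and 6.79 on the control arrays, which is 1.48 higher on the log2 scale on average (SE 0.71, adjusted p = 0.258 by limma). NimB2 had 8.60, 8.85 and 8.85 on the Sage arrays, against 8.90, 7.86 and 6.04 on the control arrays, which is 1.17 higher on average (SE 0.69, adjusted p = 0.359). In both genes control replicate 1 was close to the Sage arrays and control replicate 3 far below, an order that the late cuticle mean shared.

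Engulfment genes that act with or beside Draper, the product of drpr, included 2 that fell and none that rose among 5 measured of 10 listed (limma; 2 were higher at an unadjusted p under 0.05), with a median log2 difference of 0.01. The adaptor gene ced-6 had 9.35, 9.73 and 9.39 on the Sage arrays, against 10.70, 10.56 and 10.80 on the control arrays. Its control values were close together and above all Sage values, and the log2 difference was -1.19 (SE 0.13, adjusted p = 0.00355 by limma). With control replicate 1 as the only control, ced-6 had a difference of -1.20 (adjusted p = 0.0152). Ced-12, which helps to activate Rac, had a difference of -0.51 (SE 0.12, adjusted p = 0.0461) that was lost without any Sage array, control replicate 2 or control replicate 3 (adjusted p up to 0.171), with quantile normalization (adjusted p = 0.0786), with a trended and robust prior (adjusted p = 0.0811) and with control replicate 1 as the only control (adjusted p = 0.268). With the late cuticle mean as a covariate ced-6 had -1.11 (adjusted p = 0.0432) and Ced-12 -0.25 (adjusted p = 0.485). Neither gene is restricted to macrophages.

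Genes that macrophages use for basement membrane and migration included 2 that rose and none that fell among 16 measured of 17 listed (limma; at an unadjusted p under 0.05, 4 were higher and none lower), with a median log2 difference of 0.31. Pxn, which encodes the matrix enzyme peroxidasin, had 10.51, 10.51 and 10.51 on the Sage arrays, against 9.21, 9.28 and 8.76 on the control arrays. The groups were far apart relative to their spread, and the log2 difference was 1.43 (SE 0.15, adjusted p = 0.00286 by limma), though a second, dim probe set of Pxn gave -0.01. Unlike PPO1 and PPO2, Pxn passed in all 15 alternative fits. Pvr, a receptor that guides hemocyte migration and survival, rose by 0.46 on the log2 scale (SE 0.10, adjusted p = 0.0316), a call lost without any Sage array, control replicate 1 or control replicate 2 (adjusted p up to 0.12) and also with median centring (log2 difference 0.37, adjusted p = 0.124), a trended and robust prior (adjusted p = 0.0718) and the late cuticle mean as a covariate (adjusted p = 0.123). The collagen IV genes Col4a1 and vkg, named after their values were seen, had log2 differences of 1.46 each and adjusted p-values of 0.196 and 0.21 by limma, so neither passed. The control values were 11.97, 11.45 and 9.55 for Col4a1 and 12.04, 11.53 and 9.54 for vkg, against Sage means of 12.45 and 12.50. The matrix enzyme gene Pxn thus rose while the corpse receptor genes drpr and crq did not pass, and the difference between them was not tested.

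Markers of other cells were measured as well. Of 5 genes measured of 6 listed under lamellocyte markers, 1 fell, 4 did not pass and none rose (limma, with 0 higher at an unadjusted p under 0.05). Their median log2 difference was 0.14. The gene that fell, Tep4, encodes a thioester-containing protein and marks blood progenitors of the larval lymph gland. It is not one of the defining lamellocyte markers given below. Tep4 fell by 0.62 on the log2 scale (SE 0.14, adjusted p = 0.0385 by limma). The call of Tep4 was lost without Sage replicate 1, 2 or 3 (adjusted p = 0.122, 0.118 and 0.144) with quantile normalization (adjusted p = 0.0688), with control replicate 1 as the only control (adjusted p = 0.0768) and with the late cuticle mean as a covariate (adjusted p = 0.292). Of the defining lamellocyte markers, ItgaPS4 lay below the array medians on all arrays with a difference of -0.03. The gene atilla had 10.76, 10.57 and 10.95 on the Sage arrays, against 10.60, 8.15 and 5.65 on the control arrays. Its groups overlapped and it did not pass (log2 difference 2.63, SE 1.18, adjusted p = 0.226 by limma). The order of its control values was that of the late cuticle mean. Of 7 genes measured of 9 listed for fat body and other tissues that use srp, Yp3, a yolk protein gene, rose by 1.18 (SE 0.10, adjusted p = 0.00149 by limma) and 6 did not pass, with a median of -0.03. The mean signal of that list was 6.89, 6.72 and 6.87 on the Sage arrays, against 6.59, 6.72 and 6.82 on the control arrays. The part of such cells in the prophenoloxidase difference was not tested.

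**Figure D4:**
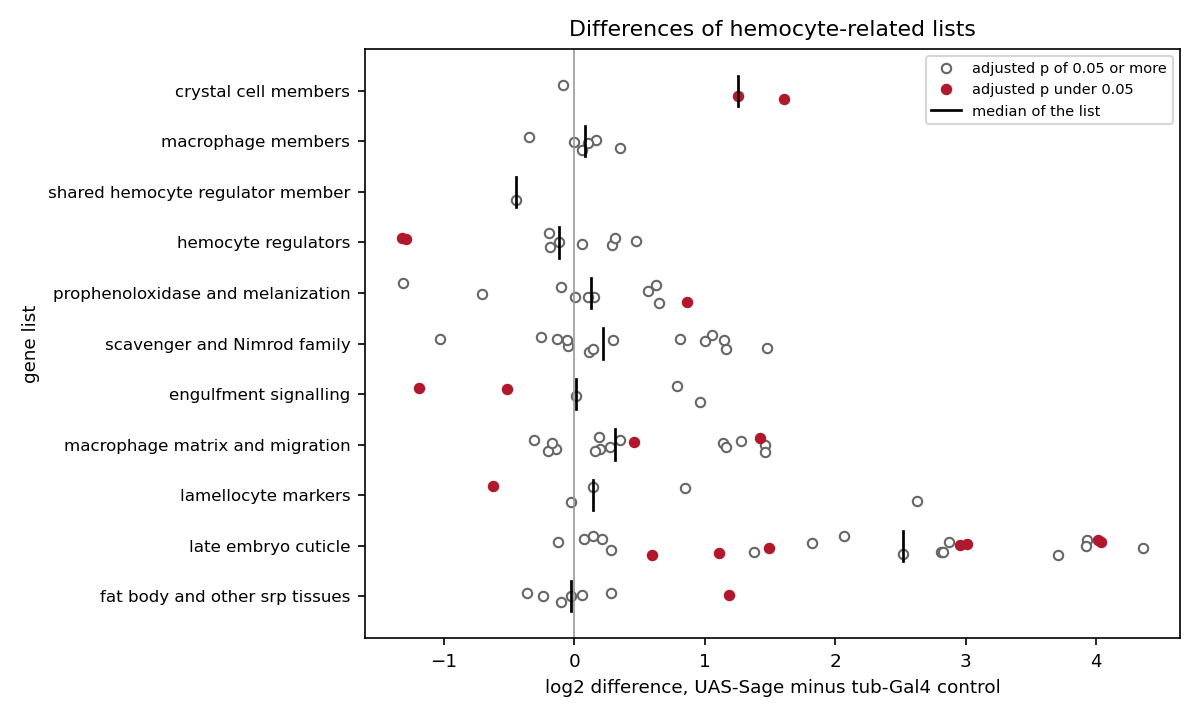
Log2 difference (UAS-Sage minus tub-Gal4 control, horizontal axis) of each measured gene in the hemocyte-related lists and in the late cuticle and fat body lists, with red points for an adjusted p under 0.05 and black bars for list medians. The crystal cell median is 1.25, which is the value of PPO2, the macrophage median is 0.08 and the late cuticle median is 2.52.

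The genes whose profile over the 6 arrays was most like that of each of 3 hemocyte genes were found as the smallest root mean square distance in log2 units, after each profile was centred, among 8646 other probe sets that name 1 gene and are not dim. For PPO1 these were CG42336 (distance 0.07), Ndg, the gene of the basement membrane protein nidogen (0.08), and alphaTub85E (0.13), and PPO2 was the 64th nearest (0.25). For PPO2 they were CG31145 (0.09), CG32795 (0.10) and CG13950 (0.10), and Pxn was the 13th (0.14). For NimC1, CG33128, orb2 and Mrp5 were nearest, at 0.08, 0.08 and 0.09. Profiles over 6 arrays share the order of the controls, so closeness says only that the values ran alike.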

How the data were processed

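The file deposited by the authors holds 1 column of log2 signals per array, with a row for each probe set. Of software, RMA and Partek appear in the submitters' processing notes, without versions. Per the labels' protocols, total RNA was amplified and labelled by a 3' in vitro transcription kit. RMA equalises arrays, so a change in total RNA per embryo is not visible. The sources used here give no genome build for the array, so no coordinates are printed.

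Of 18952 probe sets, 183 control sets were left out, and no filter on dim signal was used. In the platform annotation 13647 probe sets had 1 gene symbol, 402 had several and 4720 had none, and symbols were updated through RefSeq's Release 6 annotation. For other genes, the probe set with the highest mean stood for the gene. The test was limma 3.58.1 in R 4.3.3 on log2 values, Sage minus control, two-sided, adjusted by Benjamini-Hochberg over all 18769 probe sets. The fit was also run on simulated arrays with independent noise, at the spread of the Sage arrays. The controls here spread more, so that run does not show how the test behaves on these data. No value column was left out, and 3 arrays per group limit the precision.

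The hemocyte genes and the lists were chosen with earlier results of these data known. All 10 were named. From each other list, genes past the threshold were named (up to 6 by size), or the 2 largest differences where none passed. Other list genes given with values, among them PPO3, ItgaPS4, atilla, Col4a1 and vkg, were named after their values were seen. A planned search of promoter motifs was not run, as no sequence table was used here. Alternatives were arrays left out, a replicate block, median centring, a filter on dim probe sets, quantile normalization, another prior, array weights, the late cuticle mean as a covariate, 1 probe set per gene and, chosen after seeing the data, control replicate 1 as the only control.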

Additional observations from a re-analysis of the deposited data

Results flagged for a closer look

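The hybridisation control BioB, a bacterial RNA that enters none of the gene comparisons, had a mean log2 signal that was higher with Sage than in the controls by 1.39. It is listed because a signal outside the gene measurements differed between the groups, and its part in the differences of PPO1 and PPO2 was not tested.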

How the results depend on the processing

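PPO1 and PPO2 were higher with Sage in all 15 alternatives. Of these, PPO1 passed in 9 and PPO2 in 11. The replicate numbers did not pair the arrays (correlations of -0.13, -0.07 and -0.25 between same-numbered arrays). With a replicate block, 341 probe sets were higher and 1057 lower, 1 hemocyte gene was called higher (PPO2), and PPO1 had an adjusted p of 0.0581 by limma; yellow-f2 (0.073), Pvr (0.073), Tep4 (0.0862), klu and Ced-12 also lost their calls. Array weights, whose fit did not converge fully, gave 4869 higher and 4922 lower probe sets, 5 higher hemocyte genes (PPO1, PPO2, Hml, crq and drpr, so 3 macrophage genes among them) and 2 lower (lz and srp), a macrophage median of 0.13 and 0.078 for eater. With the late cuticle mean as a covariate, 511 were higher and 767 lower, 0 hemocyte genes were called higher by limma, the crystal cell median was 0.66, drpr had 0.67, and the sign turned for lz (0.10), srp (0.0078), NimC1 (-0.64) and Sr-CI (0.44). Median centring, which shifts all differences by about 0.09, gave a macrophage median of -0.0084 and NimC1 at -0.031. With control replicate 1 as the only control, taken to vary like the Sage arrays, 3 hemocyte genes were called higher (drpr too, adjusted p = 0.0262), PPO1 and PPO2 had adjusted p-values of 0.00487 and 0.00911, and the sign turned for lz (0.045), NimC1 (-0.34) and Sr-CI (0.10). Leaving out each array in turn gave 266 to 1276 higher and 934 to 2035 lower probe sets, 0 to 2 higher and 0 to 1 lower hemocyte genes, crystal cell medians of 1.01 to 1.41 and macrophage medians of 0.0036 to 0.15. In those fits eater ranged from -0.068 to 0.087 and NimC1 from -0.18 to 0.26. Eater turned sign without Sage replicate 1 (0.087) and without control replicate 1 (0.024) or 3 (0.0088). Without an array, with a replicate block or with a covariate, the fits have fewer residual degrees of freedom. Calls can then be lost at an unchanged difference. The causes of the other changes were not tested. Dim signal limits what can be seen of lz, Hml, NimC1 and eater.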

Other observations

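Single arrays stood apart in 3 genes of the lists, all named after their values were seen. Sr-CII, a class C scavenger receptor gene like Sr-CI, had 5.43, 4.74 and 4.52 on the Sage arrays, against 5.24, 4.76 and 7.78 on control replicates 1, 2 and 3, so control replicate 3 alone was bright. Its log2 difference was -1.03 (SE 0.80, adjusted p = 0.492 by limma). apolpp, the apolipophorin gene of the fat body, had 13.67, 11.79 and 13.45 on the Sage arrays, against 13.41, 13.50 and 13.10 on the control arrays. LanA, a laminin gene, had 12.88, 11.85 and 12.82 on the Sage arrays, against 12.52, 12.91 and 12.55 on the control arrays. Sage replicate 2 was thus the lowest array for apolpp, LanA, srp and Sr-CI. Its PPO2 value was the highest of the Sage arrays, while the PPO1 values of the Sage arrays were nearly equal (11.51, 11.52 and 11.49).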
